A study of Drosophila melanogaster with 12 samples.

Results

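The genes described here are 6 enzymes of cuticular hydrocarbon and pheromone synthesis, FASN2, FASN3, Desat1, eloF, bond and Cyp4g1. They were chosen by name from the 17737 genes in the count files, and all 6 were present. The source was the heads of Drosophila melanogaster adults that had just eclosed, and each library was made from a pool of 60 heads. The 12 libraries form 4 groups of 3. These are Nab2 null females and Nab2 null males, carrying the allele Nab2ex3, and females and males carrying the allele Nab2pex41, which the labels call wild type. Nab2 encodes a polyadenosine RNA-binding protein. The labels name no other allele, transgene or treatment, and they do not say whether the libraries came from separate cultures, so the p-values measure the spread between these libraries only.

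Cuticular hydrocarbons are long, waxy chains that coat the fly's surface. They limit water loss, and some of them act as sex pheromones. Oenocytes, which lie under the abdominal cuticle of the adult, are the main site of their synthesis. Acetyl-CoA carboxylase and fatty acid synthases build a fatty acid, elongases lengthen it, desaturases place double bonds, reductases turn it into an aldehyde, and the cytochrome P450 enzyme Cyp4g1 removes the last carbon to leave the hydrocarbon.

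Total counts assigned to genes lay between 23648813 and 30751922 per library. Nab2, given as CPM (counts normalised to the scaled size of each library), ranged from 0.58 to 1.2 in null females and from 57.3 to 62.1 in wild-type females. In males it ranged from 0.456 to 3.21 in the null and from 60 to 64 in wild type. The abundant rhodopsin gene ninaE, a marker of photoreceptors, had 231660 to 431276 counts per library. The abdominal segment genes abd-A and Abd-B had at most 4 and 3 counts. The 3 genes listed as oenocyte markers were present, but svp and Hnf4 are also expressed in other tissues. Their counts were 619 to 1023 for svp and 1503 to 2568 for Hnf4, while FarO, a fatty acyl-CoA reductase of oenocytes, had 17 to 76. The summed level of these markers was 98.7 to 121 CPM in null females, 101 to 110 in wild-type females, 104 to 113 in null males and 101 to 112 in wild-type males. Nearly all of each sum came from svp and Hnf4, while FarO reached at most 3.15 CPM. The sums therefore do not measure the amount of oenocytes. None of the 3 markers passed the test between any of the groups.

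In the heads, 1 of the 6 genes fell in both sexes of the null and 1 rose. FASN2, a fatty acid synthase linked to methyl-branched hydrocarbons, was 7.63-fold lower in null than in wild-type females and 11.7-fold lower in null than in wild-type males. Desat1, the desaturase that places the first double bond of unsaturated hydrocarbons and pheromones, was 2.4-fold higher in null females and 2.01-fold higher in null males. FASN3, bond and Cyp4g1 did not pass the test in either sex, and eloF was too low to test. Calls required an adjusted p under 0.05 in edgeR's quasi-likelihood test, with Benjamini-Hochberg adjustment over all 11223 genes tested. By this rule 2 of the 5 tested genes were called in females, 1 higher and 1 lower, near the share of 31.8% over all tested genes. In males 2 of the 5 were called, 1 in each direction, where 9.93% of all tested genes were called. The median log2 change of the 5 tested genes was -0.30 in females and -0.40 in males, against 0.01 and -0.01 over all tested genes. In these pooled heads, fewer cells of a type and less RNA per cell cannot be told apart.

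**Figure D1:**
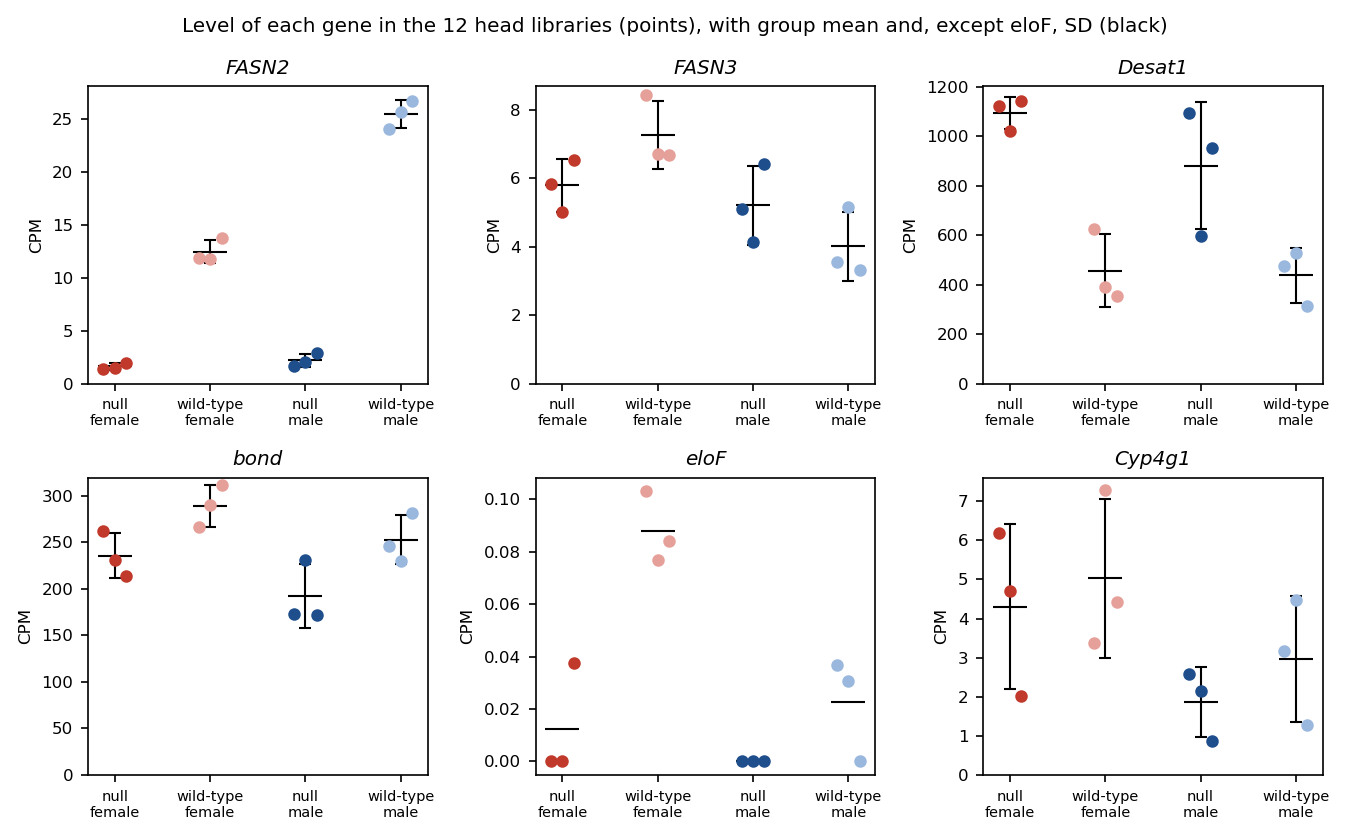
CPM of each of the 6 genes (vertical axes, each from its own scale) in the 12 head libraries, with 1 point per library, the group mean as a black bar and the SD over 3 libraries as whiskers, except for eloF, which is shown without an SD. FASN2 in null libraries stays at or below 2.86 CPM and in wild-type libraries at or above 11.8 CPM, Desat1 is higher in null libraries, and eloF never exceeds 0.103 CPM.

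FASN2 lies on chromosome arm 2L at 3043947 to 3056143 on the forward strand (BDGP6). It had 31, 39 and 53 counts in null females, against 346, 306 and 327 in wild-type females. In males it had 42, 51 and 69 counts in the null, against 656, 832 and 794 in wild type. Every null library lay below every wild-type library, in both sexes. Null and wild-type groups did not overlap for 47.9% of all tested genes in females and 33.9% in males. In CPM this was 1.62 ± 0.318 in null females and 12.5 ± 1.10 in wild-type females (SD, n = 3 each). The male values were 2.19 ± 0.616 CPM in the null and 25.5 ± 1.36 CPM in wild type (SD, n = 3 each).

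The fitted log2 change of FASN2 was -2.93 (edgeR, adjusted p of 1.82e-06 with SE 0.18) in females and -3.54 (edgeR, adjusted p of 3.33e-07 with SE 0.17) in males. Ordered from the lowest fitted change among 11223 genes, FASN2 stood at place 25 in females and place 22 in males. The authors' deposited table gave FASN2 log2 changes of -2.65 in females and -3.26 in males. The difference between the sexes, females minus males, was 0.61 (SE 0.25), and it did not pass over all genes (edgeR p 0.0318, adjusted p 0.427). None of the other settings or left-out libraries ended the call of FASN2 in either sex.

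In wild-type heads FASN2 was 2.05-fold higher in males than in females, with a log2 value of 1.03 (edgeR, adjusted p of 0.00329 with SE 0.15) and no overlap between the sexes, as for 30.4% of all tested genes. In the null the male value was 1.34-fold the female one, a log2 value of 0.42 (edgeR, adjusted p of 0.131 with SE 0.20), and the ranges overlapped, while 44.7% of all tested genes had ranges that did not. From high to low, FASN2 therefore ran from wild-type males to wild-type females to null males and null females. The 2 null groups did not differ beyond their spread. Each of the sex comparisons shares its libraries with the comparisons of null and wild type.

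A pair of small nuclear RNA genes lies inside FASN2 on the same strand, between its exons. snRNA:U5:23D, at 3048701 to 3048831, averages far more reads than FASN2, with 3026 to 4191 counts in null females, 2141 to 2913 in wild-type females, 2138 to 3374 in null males and 2439 to 3556 in wild-type males. Its log2 change was 0.50 in females (adjusted p of 0.0762 by edgeR) and 0.25 in males (adjusted p of 0.52 by edgeR). For snRNA:LU, at 3046765 to 3046880, females had a log2 change of 0.58 and males one of -0.00 (adjusted p of 0.363 and 0.999 by edgeR). Neither gene was called, and no exon of either overlaps an exon of FASN2 in the annotation.

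FASN1, the fatty acid synthase that serves general fat synthesis, starts 454 bases downstream of the end of FASN2 on the same strand. It had 35713 to 37311 counts in null females and 20967 to 26258 in wild-type females. In males it had 32371 to 44221 counts in the null and 27755 to 32272 in wild type. FASN1 rose in both sexes, by a log2 change of 0.68 (edgeR, adjusted p of 0.0014 with SE 0.11) in females and 0.62 (edgeR, adjusted p of 0.00511 with SE 0.11) in males. Per kb of exon, FASN1 averaged 168 CPM in null females and 105 CPM in wild-type females, and FASN2 averaged 0.199 and 1.53 CPM. In these heads the neighbouring synthase genes thus changed in opposite directions, and FASN2 was the far less abundant of the pair.

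FASN3, a fatty acid synthase that oenocytes need for the waterproofing of the airways, lies on arm 3L at 25752859 to 25762779 on the reverse strand. It had 131, 130 and 175 counts in null females, against 245, 174 and 159 in wild-type females, and 130, 102 and 155 in null males, against 97, 167 and 98 in wild-type males. In CPM the female groups did not overlap, as for 47.9% of all tested genes, while the male groups did. The log2 change was -0.33 (edgeR, adjusted p of 0.22 with SE 0.20) in females and 0.37 (edgeR, adjusted p of 0.304 with SE 0.20) in males. The difference between these effects, females minus males, was -0.70 (SE 0.29), with an edgeR p of 0.0303 and an adjusted p of 0.427.

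In wild type FASN3 was lower in males, at 4.01 ± 1.00 CPM, against 7.27 ± 1.00 CPM in females (SD, n = 3 each). The log2 value was -0.86 (edgeR, adjusted p of 0.0384 with SE 0.20). This call was lost without wild-type male library 1 or 3, with log2 values of -0.78 and -0.74. It was lost as well without wild-type female library 1, 2 or 3, with log2 values of -0.74, -0.91 and -0.92 for FASN3, and under total counts (-0.81, edgeR adjusted p 0.0636). Over all alternatives its adjusted p ran from 0.00576 to 0.159. The authors' deposited DESeq2 table gave FASN3 a log2 value of 0.75 for wild-type females against males (adjusted p 0.00483). FASN3 and FASN2 thus stood on opposite sides in the comparison of wild-type males with females. In that comparison 2 of the 5 tested genes were called, 1 higher and 1 lower in males. Of all tested genes 3.37% were called, 1.3% higher and 2.07% lower.

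**Figure D2:**
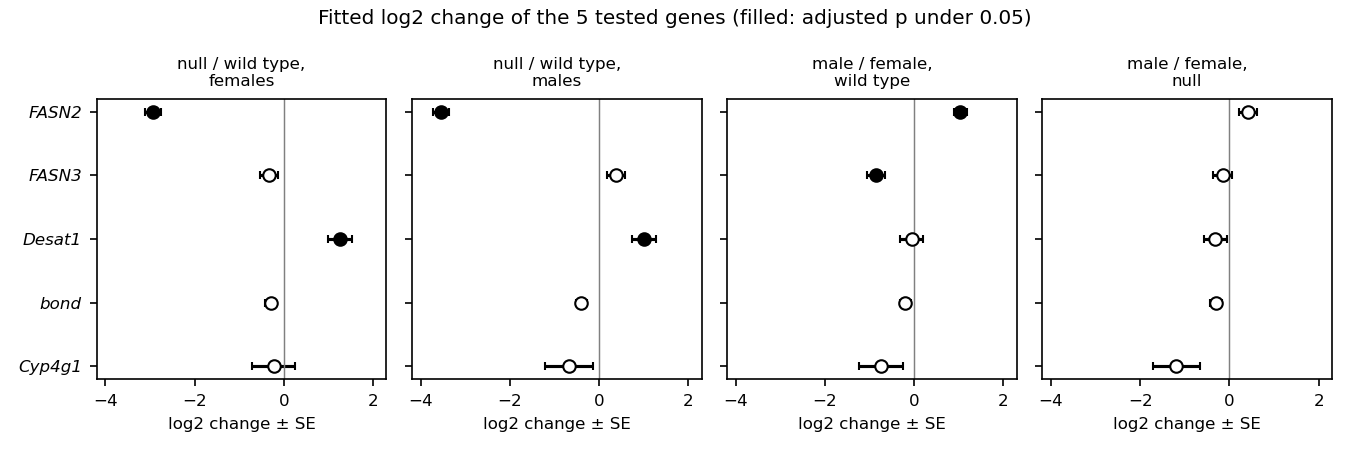
Fitted log2 change with its SE (horizontal axes) for the 5 tested genes in 4 comparisons, with filled points where the adjusted p is under 0.05. FASN2 is at -2.93 in females and -3.54 in males, Desat1 at 1.26 and 1.01, and the sex comparison in the null has no filled point.

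Desat1 lies on arm 3R at 12439600 to 12447616 on the forward strand. It had 25181, 26457 and 30523 counts in null females, against 18174, 10148 and 8403 in wild-type females. Male libraries had 27940, 14688 and 22984 counts in the null, against 12946, 17041 and 9282 in wild type. After scaling, no null library overlapped the wild-type libraries of its sex, as for 47.9% of all tested genes in females and 33.9% in males. The lowest null male library, at 594.7 CPM, lay close to the highest wild-type male library, at 526.4 CPM. Desat1 averaged 1095 ± 65.9 CPM in null females and 457 ± 147 CPM in wild-type females (SD, n = 3 each). In males it averaged 881 ± 258 CPM in the null and 438 ± 111 CPM in wild type (SD, n = 3 each).

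The log2 change of Desat1 was 1.26 (edgeR, adjusted p of 0.0046 with SE 0.26) in females. In males it was 1.01 (edgeR, adjusted p of 0.0304 with SE 0.26). The male call of Desat1 was lost without null male library 1 or 3 (0.82 and 0.95) and without wild-type male library 1 or 3 (1.07 and 0.82), while the female call held in each alternative run. The authors' deposited DESeq2 table gave Desat1 log2 changes of 1.05 in females (adjusted p 2.06e-05) and 0.86 in males (adjusted p 0.00176). The difference of the effects, females minus males, was 0.25 (edgeR, adjusted p of 0.737 with SE 0.365). Between males and females Desat1 was not called in wild type (-0.06, SE 0.26, edgeR adjusted p 0.942) or in the null (-0.31, SE 0.26, edgeR adjusted p 0.366). The null groups of Desat1 thus stood above the wild-type groups, and within a genotype the sexes did not differ beyond their spread.

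Desat1 is also expressed in the fat body. Of 7 listed markers of head fat body, 5 rose in null females and none fell, where 18.2% of all tested genes were called higher. In null males 1 of the 7 rose and none fell, where 4.89% of all tested genes were called higher. Their summed level was 13500 to 26800 CPM in null females, against 1940 to 2990 CPM in wild-type females. In males it was 470 to 583 CPM in the null, against 208 to 354 CPM in wild type. The marker called in males was the storage protein gene Lsp2, with 305.3, 278.3 and 381.9 CPM in the null, against 75.2, 86.61 and 118.8 CPM in wild type. Lsp2 thus made up most of the summed level in null males, while Yp1 and Yp2 had uncalled log2 changes of -1.62 and -0.92 there. None of the 7 markers was at 0 in any library, with the lowest count at 28. The yolk protein genes Yp1, Yp2 and Yp3, which are female-biased, make up most of the sum in females. The lipophorin gene apolpp, made by the fat body, had 7209, 5912 and 5597 CPM in null females, against 2025, 926.8 and 964.7 CPM in wild-type females. In males apolpp had 4855, 1967 and 3126 CPM in the null, against 2227, 2452 and 1006 CPM in wild type. In both male groups the libraries fell in the same order for apolpp and for Desat1, which was not so in either female group. With only 3 libraries in a group, a shared order can arise readily by chance, and it was not tested. The part of the fat body in the result for Desat1 was not tested.

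The neighbouring desaturase gene Desat2 lies 1742 bases upstream of Desat1. It had 3 to 13 counts across the 12 libraries and was not called in either sex (0.80 in females and 0.06 in males, edgeR adjusted p 0.27 and 0.963). Fad2, also named desatF, makes the dienes that serve as female pheromones. Its counts were 5, 7 and 1 in null females and 0, 1 and 0 in wild-type females. All 6 male libraries had 0 counts of Fad2. These counts did not pass the filter on low counts, so they were not tested.

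The elongase gene eloF, which lengthens the female dienes, lies on arm 3R at 9814161 to 9815158 on the forward strand. It had 0, 0 and 1 counts in null females, against 3, 2 and 2 in wild-type females. In males it had 0 counts in each null library, against 1, 1 and 0 in wild type. No library exceeded 3 counts, and no fold change is given. eloF sits in a group of 5 elongase genes that spans 7.13 kb and also holds CG8534, CG16904, CG9459 and CG9458. The highest count of any gene of this group in any library was 7, so no difference between groups could be read for them at this depth.

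bond, an elongase of very long chain fatty acids that males need for fertility and for a male pheromone, lies on arm 3R at 22550680 to 22556494 on the forward strand. It had 5872, 5976 and 5718 counts in null females, against 7743, 7521 and 7405 in wild-type females, and 4411, 5713 and 4137 in null males, against 6712, 7433 and 8340 in wild-type males. It averaged 235 ± 24.3 CPM in null females and 289 ± 22.5 CPM in wild-type females (SD, n = 3 each). In males the averages were 192 ± 34.2 CPM in the null and 252.5 ± 26.4 CPM in wild type (SD, n = 3 each). The female ranges did not overlap, and in males null library 2, at 231.3 CPM, lay above wild-type library 2, at 229.6 CPM. Groups that do not overlap were found for 47.9% of all tested genes in females and for 33.9% in males.

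The log2 change of bond was -0.30 (edgeR, adjusted p of 0.0978 with SE 0.13) in females and -0.40 (edgeR, adjusted p of 0.0769 with SE 0.13) in males. Neither passed. The male value of bond passed without null male library 2 (-0.55, edgeR adjusted p 0.0161), without null female library 1 (-0.39, edgeR adjusted p 0.0478), under total counts (-0.43, edgeR adjusted p 0.0402) and with DESeq2 (-0.39, adjusted p 0.045). In females it passed under total counts (-0.41, edgeR adjusted p 0.0203). In the authors' deposited table bond had an adjusted p of 0.0602 in females and 0.0450 in males. The antisense gene CR44062 overlaps 184 bases of bond's exons on the other strand. It had 12 to 21 counts in null females and 32 to 40 in wild-type females, so its reads are few beside those of bond. Its log2 change was -1.10 in females (adjusted p of 0.00981 by edgeR) and -0.85 in males (adjusted p of 0.0551 by edgeR), and the strand setting of the counting is not given in the sources used here.

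A group of 4 elongase genes spans 48.2 kb around bond, and its members did not move alike. sit rose by a log2 change of 0.97 (edgeR, adjusted p of 0.00437 with SE 0.20) in females and 0.94 (edgeR, adjusted p of 0.0121 with SE 0.20) in males. CG33110 rose by 0.66 (edgeR, adjusted p of 0.021 with SE 0.19) in females and 0.86 (edgeR, adjusted p of 0.014 with SE 0.19) in males. The CG33110 call was lost in females without null library 1 (0.61) or wild-type library 1 (0.52), and in males without null library 1 (0.79) or wild-type library 1 or 2 (0.78 and 0.79). The male call of sit was lost without null library 3 (0.82). CG5326 had log2 changes of 0.18 and 0.30 and was not called in either sex (adjusted p of 0.193 and 0.0829 by edgeR).

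Cyp4g1 lies on the X chromosome at 467057 to 469335 on the reverse strand, within an intron of CG32816 on the same strand. It had 139, 122 and 54 counts in null females, against 98, 189 and 105 in wild-type females. In males it had 66, 53 and 21 counts in the null, against 86, 145 and 38 in wild type. The groups overlapped in both sexes. The log2 change was -0.23 (edgeR, adjusted p of 0.738 with SE 0.49) in females and -0.67 (edgeR, adjusted p of 0.513 with SE 0.53) in males. Males had less Cyp4g1 than females on average in both genotypes, with log2 values of -0.75 (edgeR, adjusted p of 0.47 with SE 0.49) in wild type and -1.19 (edgeR, adjusted p of 0.105 with SE 0.53) in the null. Neither passed, and the value in the null passed without null female library 3 (-1.53, edgeR adjusted p 0.0425) and with a replicate block (-1.19, edgeR adjusted p 0.0287).

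Cyp4g1 is among the most abundant transcripts of oenocytes, so its level here was compared per length with that of related genes. Per kb of exon it averaged 1.89 CPM in null females, 2.20 in wild-type females, 0.820 in null males and 1.30 in wild-type males. Cyp4g15, its close relative, which is expressed in the nervous system, averaged 73.7, 67.0, 81.4 and 78.7 CPM per kb in the same order of groups. Cpr, the reductase that supplies electrons to cytochrome P450 enzymes, averaged 59.9, 86.3, 79.4 and 87.5 CPM per kb. Cpr fell in females (log2 change -0.53, SE 0.13, edgeR adjusted p 0.0111), a call lost without wild-type female library 2 or 3 (-0.46 in both), and was not called in males (-0.14, edgeR adjusted p 0.585). Cyp4g15 was not called in either sex (0.14 and 0.05, edgeR adjusted p 0.299 and 0.835). Among the 6 genes themselves, Desat1 and bond were the most abundant per length, with 440 and 122 CPM per kb in null females and 183.5 and 150 CPM per kb in wild-type females. FASN3 averaged 0.784 and 0.984 CPM per kb in these groups.

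**Figure D3:**
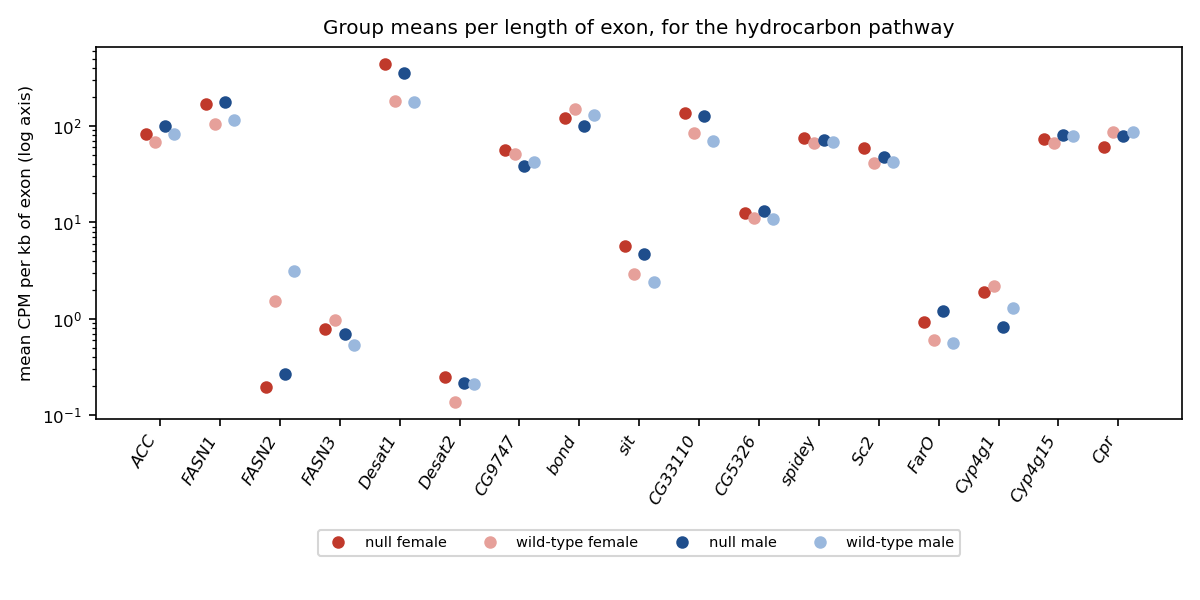
Group means in CPM per kb of exon (vertical log axis) for genes of the hydrocarbon pathway, 1 point per group of 3 libraries. FASN1, Desat1 and bond lie above 99 CPM per kb in every group, while FASN2, FASN3, Desat2, FarO and Cyp4g1 lie at or below 3.13 CPM per kb.

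No gene of the 6 was called for the difference of the null effect between the sexes, where 0.00891% of all tested genes were called. FASN2 and FASN3 had an unadjusted edgeR p under 0.05, as did 1297 of all 11223 tested genes. DESeq2 likewise called 0 of the 6. No gene of the 6 was called between null males and null females either, where 29.1% of all tested genes were called. In that comparison 2 genes, bond and Cyp4g1, had an unadjusted edgeR p under 0.05, as did 4910 of all 11223 tested genes. DESeq2 called 0 of the 6 there. For bond, which had a log2 value of -0.29 (edgeR, adjusted p of 0.102 with SE 0.13) there, the call appeared without null male library 2 (-0.45, edgeR adjusted p 0.0278).

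The wider pathway was read from a list of 53 further genes, of which 38 passed the filter on low counts. The 15 that did not pass had at most 11 counts in any library. In females 19 of the 38 were called, 13 higher and 6 lower in the null, where 18.2% of all tested genes were called higher and 13.6% lower. The lower calls numbered 2 without wild-type female library 2 and 1 without wild-type female library 3, with 13 higher calls in each case. In males 9 were called, 8 higher and 1 lower, where 4.89% of all tested genes were called higher and 5.03% lower. The median log2 change over the 38 was 0.16 in females and 0.10 in males. Among markers of other cell types in females, 1 of 4 for photoreceptors was called higher in the null, near the share of 18.2% over all tested genes. Called lower were 1 of 4 for neurons and 2 of 3 for glia, where the share was 13.6%, and 0 of 3 for muscle were called. In males 0 of these were called. The summed neuron markers were at 893 to 1260 CPM (median 1230) in null females and 1380 to 1440 CPM in wild-type females. The lowest of these was null female library 1, where nSyb was at 139.7 CPM, against 239.8 and 238.9 CPM in null female libraries 2 and 3. The summed glia markers were at 1270 to 1410 CPM in null females and 1410 to 1530 CPM in wild-type females. The summed photoreceptor markers were at 26300 to 33000 CPM in null females and 20200 to 22800 CPM in wild-type females. For the muscle markers the sums were 5190 to 7590 CPM in null females and 7780 to 9670 CPM in wild-type females. The part of these cell types in the counts of called pathway genes was not tested.

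Of the 3 genes of precursor synthesis, FASN1 was the one called in both sexes. ACC, acetyl-CoA carboxylase, had log2 changes of 0.29 in females and 0.28 in males (adjusted p of 0.0661 and 0.144 by edgeR). Of 14 tested elongation genes, 6 rose and 2 fell in females, and 3 rose in males. Over all tested genes, 18.2% were called higher and 13.6% lower in females, and 4.89% and 5.03% in males. CG6746, now named Hacd1, a dehydratase of the elongation cycle, rose by 1.18 (edgeR, adjusted p of 7.42e-04 with SE 0.17) in females and had a log2 change of 0.51 (adjusted p of 0.0824 by edgeR) in males. Sc2, the enoyl reductase of the cycle, rose by 0.52 (adjusted p of 0.00264 by edgeR) in females and had a log2 change of 0.20 (adjusted p of 0.242 by edgeR) in males. The elongase gene CG31522 fell by 0.55 in females (edgeR, adjusted p of 0.0152 with SE 0.15), a call lost without wild-type female library 2 (-0.52) or 3 (-0.49). Elo68alpha, an elongase gene known in males of the species for making a sex pheromone precursor, had 34, 16 and 19 counts in null females against 3, 1 and 0 in wild-type females. In males Elo68alpha had 13, 12 and 7 counts in the null against 1, 1 and 2 in wild type. It was called in both sexes (adjusted p of 8.42e-04 and 0.014 by edgeR), and the male call was lost without null male library 1 or wild-type male library 1 or 2. spidey, the ketoacyl reductase of the cycle, was not called in either sex (0.18 and 0.08, edgeR adjusted p 0.0691 and 0.57).

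Of the 4 tested desaturation genes, 1 rose and 1 fell in females, and 1 rose in males. The desaturase gene CG9743 rose in both, by 0.76 (edgeR, adjusted p of 1.97e-04 with SE 0.09) in females and 0.46 (edgeR, adjusted p of 0.00822 with SE 0.09) in males. Of 11 tested acyl reductase genes, 2 rose and 2 fell in females, and 2 rose and 1 fell in males. For both steps, the shares over all tested genes were 18.2% higher and 13.6% lower in females, and 4.89% and 5.03% in males. The acyl reductase counts in females thus lay near these shares. CG1441 averaged 65.9 ± 8.14 CPM in null females and 27.5 ± 4.19 CPM in wild-type females (SD, n = 3 each). It rose by 1.26 (adjusted p of 2.47e-04 by edgeR) in females and 1.14 (adjusted p of 7.92e-04 by edgeR) in males. CG30427 rose by 0.96 (adjusted p of 4.08e-04 by edgeR) in females and 0.63 (adjusted p of 0.00901 by edgeR) in males. CG13091 had 1, 1 and 0 counts in null males against 16, 26 and 11 in wild-type males (adjusted p of 0.0155 by edgeR), a call lost without null male library 1 or 3 or wild-type male library 2. FarO was not called, with log2 changes of 0.61 in females and 1.09 in males (adjusted p of 0.249 and 0.0941 by edgeR), and the male value passed without null male library 2 (1.36, edgeR adjusted p 0.0428).

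Of the 4 genes of export and transport, 3 rose in females and 1 rose in males, where 18.2% and 4.89% of all tested genes were called higher. apolpp, which carries lipids and hydrocarbons through the haemolymph, rose by 2.26 (edgeR, adjusted p of 0.00236 with SE 0.41) in females and had a log2 change of 0.81 (adjusted p of 0.242 by edgeR) in males. Mtp, which loads lipid onto such particles, rose by 0.97 (adjusted p of 1.98e-04 by edgeR) in females and 0.61 (adjusted p of 0.00656 by edgeR) in males. CG2837, now named snsl, which acts in the outer lipid barrier of the cuticle, rose by 1.13 (adjusted p of 8.92e-04 by edgeR) in females and had a log2 change of 0.48 (adjusted p of 0.0933 by edgeR) in males. Its partner, the transporter gene CG9990, now named snu, had log2 changes of -0.06 and -0.10 and was not called (adjusted p of 0.545 and 0.511 by edgeR). Several of these genes act in the fat body, whose marker values are given with Desat1, and that part was not tested.

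**Figure D4:**
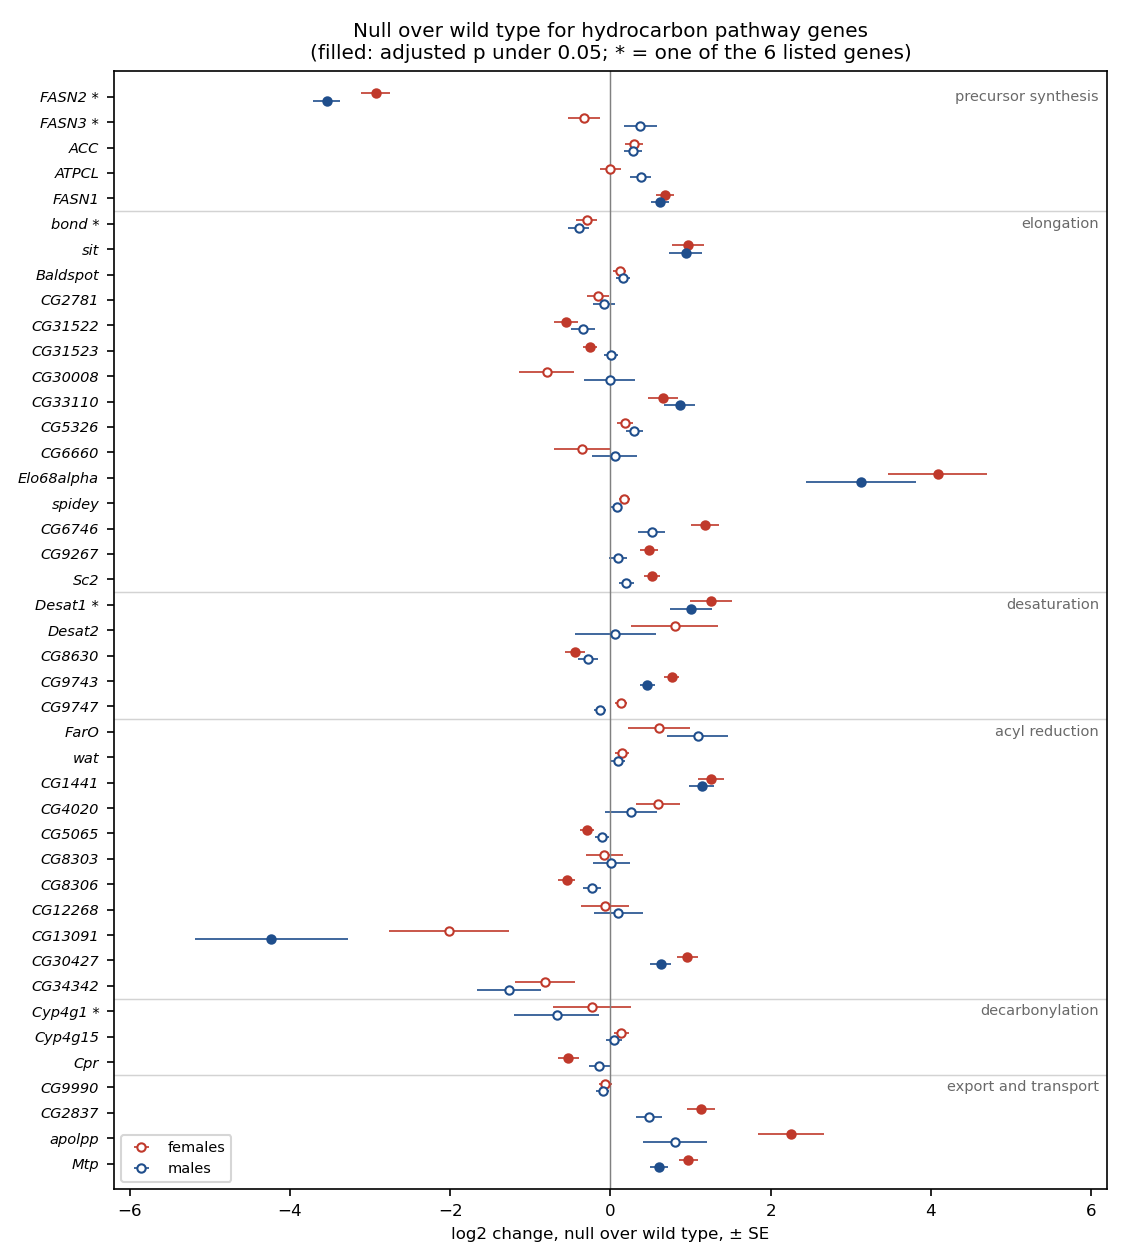
Log2 change of null over wild type with its SE (horizontal axis) for the 5 tested genes of the 6, marked by an asterisk, and the 38 tested further genes of the pathway, females in red and males in blue, with filled points where the adjusted p is under 0.05. FASN2 lies at -2.93 in females and -3.54 in males, while Desat1, FASN1, sit, CG33110, Elo68alpha, CG9743, CG1441, CG30427 and Mtp are filled on the higher side in both sexes.

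Between males and females, 0 of the 38 further genes were called in wild type, with 10 at an unadjusted edgeR p under 0.05 and 2 called by DESeq2. Over all 11223 tested genes, edgeR called 3.37% there, and 1946 had an unadjusted edgeR p under 0.05. In the null 12 were called, 4 higher and 8 lower in males, where 13.1% of all tested genes were called higher and 16% lower. Under total counts the split was 6 higher and 3 lower, and RLE scaling gave 4 higher and 5 lower. The count was 3 without null male library 3, 6 without null female library 1 and 1 when only the null libraries were fitted. Those lower in null males than in null females were CG4020 (-1.17), CG9747 (-0.54), CG6746 (-0.51), CG9743 (-0.39), Mtp (-0.33), wat (-0.31), Sc2 (-0.29) and CG9990 (-0.26), given as log2 values. Those higher in null males were CG6660 (1.09), ATPCL, which supplies cytosolic acetyl-CoA (0.60), Cpr (0.41) and CG5065 (0.35). Counts were low for CG6660, at 7 to 23 per library, and for CG4020, at 11 to 42. Between wild-type males and females these 2 genes had uncalled log2 values of the same sign, 0.68 and -0.83. Of the 12 called genes, CG6746, Mtp and Sc2 had a wild-type value of the opposite sign. The calls of ATPCL, CG9747 and CG9743 held whichever library was left out, and those of the other 9 were lost without null male library 3. Of the marker lists, 5 of 7 for head fat body were lower in null males than in null females, where 16% of all tested genes were called lower. Called higher were 3 of 4 for neurons and 1 of 3 for glia, where the share was 13.1%. The summed fat body markers were at 470 to 583 CPM in null males and 13500 to 26800 CPM in null females. In wild type 3 of the 7, the female-biased Yp1, Yp2 and Yp3, were already lower in males, where 2.07% of all tested genes were called lower. The sums in wild type were 208 to 354 CPM in males and 1940 to 2990 CPM in females. The summed neuron markers were at 1450 to 1580 CPM in null males and 893 to 1260 CPM in null females. The summed glia markers were at 1130 to 1330 CPM in null males and 1270 to 1410 CPM in null females. The glia marker called higher was repo (log2 value 0.27). Eaat1, which makes up most of the glia sum, had an uncalled log2 value of -0.15, and moody one of 0.15. The part of these cell types was not tested. For the difference of the null effect 0 of the 38 were called, with 8 at an unadjusted edgeR p under 0.05 and 0 called by DESeq2. Over all 11223 tested genes, edgeR called 1 for that difference, and 1297 had an unadjusted edgeR p under 0.05.

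The genes with the profile most like each variable member were taken as those with the smallest mean absolute difference of centred log2 CPM over the 12 libraries. For FASN2 these were CR45997, at 0.318, Or49b, at 0.449, and CG8757, at 0.5 on the log2 scale. CR45997, a long noncoding RNA gene, averaged 0.274 CPM in null females, 1.52 in wild-type females, 0.215 in null males and 3.47 in wild-type males. For Desat1 they were CG10433, at 0.144, CG2233, at 0.162, and Poc1, at 0.166. CG2233 averaged 1340 ± 284 CPM in null females and 596 ± 122 CPM in wild-type females (SD, n = 3 each), and 924 ± 233 CPM in null males and 556 ± 78.4 CPM in wild-type males (SD, n = 3 each). For Cyp4g1 the nearest were CR44976, at 0.338, CG14856, at 0.426, and Or56a, at 0.44. For FASN3, bond and eloF no such genes were sought, since the group means of FASN3 and bond spanned less than 1 on the log2 scale and eloF was not tested.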

How the data were processed

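The authors deposited raw counts per gene for each of the 12 libraries. Per the labels' protocols, RNA depleted of ribosomal RNA was made into stranded libraries and sequenced as paired ends. Per the submitters' processing notes, the tools were STAR 2.5.2b-0, featureCounts 1.6.0.3 and DESeq2 2.11.40.1, with genome build BDGP6. Strand setting, treatment of multiply mapped reads and annotation are not given in the sources used here. The authors' deposited comparison table holds, per the file headers, log2 fold changes with standard errors and adjusted p-values.

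The counts were taken into edgeR 4.0.16 (R 4.3.3), filtered with filterByExpr over the 4 groups and scaled with TMM. A single quasi-likelihood fit of 4 group means used all 12 libraries and left 8 residual degrees of freedom. The 5 comparisons were tested with Benjamini-Hochberg adjustment over all genes tested. Each SE was derived from the test, as the size of the log2 change over the root of its F value. Fold changes carry a prior count of 0.125. Alternatives were RLE scaling, total counts, no filter on low counts, DESeq2 1.42.0, a fit of only the groups compared, a replicate block and leaving out each library. The fit was tested on simulated data.

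Positions and exon lengths come from Ensembl release 115 of the same build. The members, lists and tests were chosen with earlier results of these data known. The text names the 6 members, Nab2, the called further pathway genes with the largest changes, up to 12 per comparison, Fad2, FarO, Cyp4g15, Cpr and FASN1, and the 3 genes most like each member whose group means span at least 1 on the log2 scale. Marker genes were taken as whole lists. ACC, spidey, CG5326, Desat2, the neighbours of eloF and the genes overlapping a member are named outside that rule, chosen after their values were seen. No sequences are shown.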

Additional observations from a re-analysis of the deposited data

How the results depend on the processing

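Of the calls for the 5 tested genes, those of FASN2 and the female call of Desat1 kept their direction and their side of the threshold in all alternatives. Several results without a call did so too, among them those of FASN2 and FASN3. Of the 2 genes called in males, leaving out single libraries gave 1 to 3. Of the 2 called between wild-type males and females, it gave 1 to 2, and total counts gave 1. Of the 0 called between null males and females, it gave 0 to 1. Directions turned, always without a call, when 1 library was left out. The change of Cyp4g1 in females ranged from -0.59 to 0.14, the difference of the effects on bond from 0 to 0.26, and the value of Desat1 between wild-type males and females from -0.22 to 0.23. Over the 38 further genes, the count between wild-type males and females was 2 with DESeq2 and 0 to 2 without 1 library, and that between null males and females was 1 in a fit of only those groups and 3 to 12 without 1 library.

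Over all genes, leaving out 1 library gave 2068 to 3838 calls in females (3573 with all), 624 to 1852 in males (1114), 0 to 3 for the difference (1), 149 to 848 between wild-type sexes (378) and 914 to 3696 between null sexes (3265). A fit of only the groups compared gave 2303 in females, 671 between wild-type sexes and 571 between null sexes. DESeq2 gave 658 between wild-type sexes and 28 for the difference, and no filter on low counts gave 2 for the difference. Total counts shifted the median log2 change by -0.11 in females and by 0.13 between null sexes, where the calls then split into 1392 higher and 2253 lower in females and 2078 higher and 859 lower in null males. Counts moved by over 1.5 times without wild-type female library 2 (2068) or 3 (2077) in females. In males they did so without null female library 1 (1852), null male library 1 (652) or 3 (693), and without the first (624) or the second (719) of the wild-type males. Between wild-type sexes they did so without null female library 1 (848), any wild-type female library (149 to 211) or wild-type male library 1 (153) or 2 (172), and between null sexes without null female library 1 (1876) or null male library 3 (914). The causes of these moves were not tested.

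Replicate numbers are shared across groups, but same-numbered libraries did not deviate together throughout (correlations from -0.176 to 0.283), and 2 to 4 of 6 libraries correlated best with their own number, so they were not treated as pairs. With a replicate block 1 of the 6 genes was called between wild-type males and females, FASN3 being lost (edgeR adjusted p 0.0553), 1 between null males and females (Cyp4g1, edgeR adjusted p 0.0287), and 0 genes of all for the difference. Depth limits eloF, Fad2 and the other genes with a few counts.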
